A study of Mus musculus with 18 samples.

Results

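DNA repair and checkpoint genes were followed in regenerating mouse liver. The set was 33 genes chosen by name for their roles in homologous recombination, the Fanconi anaemia pathway, end processing and mismatch repair, checkpoint signalling, and base excision and single-strand break repair, out of 17180 genes listed in the deposited tables. The choice was made with earlier results of these data known, so contrasts of the set with all genes are descriptive. All 33 were found by symbol, and 32 of them were among the 12199 genes with enough reads to test. Fancl, which encodes the ubiquitin ligase subunit of the Fanconi core complex, had 26 reads over all complete libraries, between 0 and 6 in a library, and was not tested.

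RNA-seq libraries had been made from liver of C57BL/6 mice 0.5, 2, 4, 24, 48, 72, 120 or 168 h after removal of 2/3 of the liver (partial hepatectomy), and from sham-operated C57BL/6 mice. Each group had 2 libraries, each pooled from the RNA of 3 mice. The sham mice carry no time of collection in the labels, which give neither age nor sex for any group and name no transgene or drug. P-values measure the spread between pools, and a level in bulk liver cannot tell fewer cells of a type from less RNA per cell.

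Library totals lay between 7.78 and 9.16, in units of 1000000 uniquely mapped reads. The tables of 16 libraries were complete. That of sham replicate 2 ended at genes with 52 reads, so only 8 of the 33 genes were listed in it, and that of 0.5 h replicate 1 ended at 157 reads and listed Parp1 alone. A gene missing from them lay below 6.52 counts per 1000000 reads (CPM) in sham replicate 2 and below 19 CPM in 0.5 h replicate 1. Tests therefore used the 16 complete libraries, with 1 library each for sham and 0.5 h, which were assumed to vary like the pools of the other groups. Levels are given in CPM scaled by TMM, edgeR's correction for library composition, unless stated otherwise. Values and bounds of sham replicate 2 and 0.5 h replicate 1 use TMM factors computed apart, over the genes listed in all 18 tables. They are therefore not on exactly the same scale as the other libraries. A count of 0 in a complete library allows up to 3 reads, at most 0.479 CPM on this scale, counting error only.

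Cells copy their genome once before dividing, and breaks, crosslinks and stalled replication forks that arise during that copying are handled by homologous recombination and the Fanconi anaemia pathway. The kinases ATR and ATM sense such damage and act through CHK1 and CHK2 to delay the cell cycle, while base excision repair removes damaged or misplaced bases. After partial hepatectomy the remaining hepatocytes, which rarely divide in the resting adult liver, enter the cell cycle largely in step, so that DNA replication and then mitosis sweep through the tissue.

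The 33 genes were at their lowest, as a sum, at 4 h and at their highest at 48 h. Their summed level was 185 CPM in the sham pool, 159 CPM at 0.5 h, 149 ± 4.02 CPM at 2 h, 138 ± 8.48 CPM at 4 h, 240 ± 7.63 CPM at 24 h, 352 ± 35.4 CPM at 48 h, 266 ± 51 CPM at 72 h, 176 ± 12.3 CPM at 120 h and 177 ± 0.535 CPM at 168 h (SD, n = 2 pools except for sham and 0.5 h with 1). Parp1 alone made up between 20.8% and 35.9% of the sum in a library, and H2afx between 4.16% and 18.8%. Without these 2 genes the sum was 216 ± 17.3 CPM at 48 h, against 117 CPM in the sham pool. That smaller sum was not lowest at 4 h, where it was 97.7 ± 8.8 CPM, beside 92.1 CPM at 0.5 h, 92.8 ± 2.37 CPM at 2 h and 92.2 ± 3.51 CPM at 168 h. The mean level was highest at 48 h for 23 of the 33 genes.

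**Figure D1:**
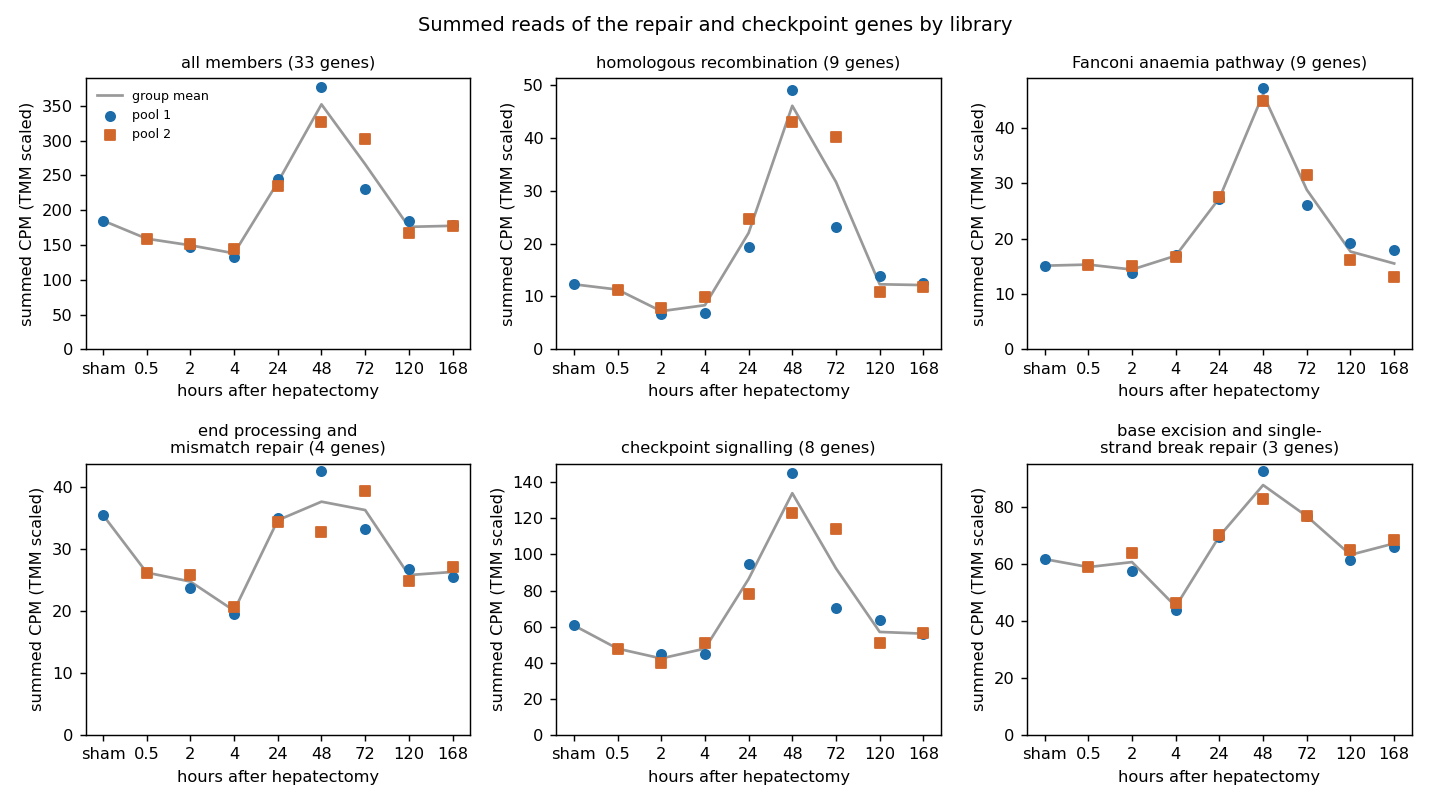
Summed CPM (TMM scaled, y axis) of all 33 repair and checkpoint genes and of the 5 role groups in each complete library, by hours after hepatectomy (x axis); circles are pool 1, squares pool 2, and the line joins group means. The sum of all genes was 352 CPM at 48 h and 185 CPM in the sham pool, and the homologous recombination and Fanconi sums show the steepest peak.

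Of the 32 genes tested, 24 differed among the 9 groups (edgeR quasi-likelihood test with Benjamini-Hochberg adjustment at 0.05), against 42.8% of all genes tested. Of these 24, the mean was highest at 48 h for 20, or 83.3%, where the same held for 20.4% of the 5220 genes of the whole table that differed. Against sham, 14 genes rose and 1 fell at 48 h, where 14.9% of all genes tested were called, 7.66% higher and 7.25% lower. The median log2 fold change of the 32 genes at 48 h against sham was 1.84, beside 0.01 over all genes tested. The comparison of 24 h with 4 h, which has 2 complete pools on each side, called 12 genes, all higher, against 22.4% of all genes called and 11.7% called higher. The median log2 fold change was 1.25 there, beside 0.00 over all genes. At 168 h against 48 h, again with complete pools on both sides, 18 genes fell, against 13.8% of all genes called and 6.84% called lower, with a median of -1.63 beside 0.02 over all genes.

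The remaining steps moved fewer of these genes. At 4 h against sham, 1 gene rose and 3 fell, against 15.5% of all genes called, 7.22% higher and 8.25% lower. At 24 h against sham 3 rose (Fanca, Fanci and Chek2), against 2.93% of all genes called and 1.26% called higher. At 72 h against sham 5 rose (Brca1, Fanca, Fanci, Chek2 and H2afx), against 3.82% called and 2.53% called higher. At 48 h against 24 h 4 genes rose (Bard1, Fanca, Brip1 and H2afx), against 6.57% called and 4.2% called higher. At 0.5 and 2 h against sham edgeR called 0 genes, with 2 and 4 at an unadjusted p under 0.05 and 0 by DESeq2 at both times, where 0.0492% and 2.65% of all genes were called. At 120 and 168 h against sham it also called 0, with 5 at an unadjusted p under 0.05 at each and 0 by DESeq2, where 0.107% and 0.082% of all genes were called. At 72 h against 48 h it called 0, with 6 at an unadjusted p under 0.05 and 1 by DESeq2, against 0.656% of all genes.

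The single complete sham library stands behind each comparison with sham. Of the 14 genes called higher at 48 h, Brca1, Brip1, Chek2, Clspn, H2afx and Ung lay in both 48 h pools above the value or the bound of sham replicate 2. Bard1, Exo1, Fanca, Fancd2, Fanci, Rad51ap1, Rad54l and Xrcc2 lay under its 6.52 CPM bound in at least 1 pool and cannot be set against it. A fit of 17 libraries with sham replicate 2, which can hold only the 8 genes it lists, called 4 of them at 48 h against sham, where it called 31.1% of its 8026 genes, against 2 of the same 8 in 16 libraries. At 24 h against sham, 168 h against sham and 48 h against 24 h it called 1, 1 and 2 of them, where it called 11.7%, 3.85% and 9.99% of its genes. H2afx, Topbp1 and Parp1 were higher in that fit, with edgeR adjusted p = 6.82e-05, 0.00949 and 0.0078, and Rmi1 was lower (edgeR adjusted p = 0.0124). Pool membership also mattered for the counts: at 48 h against sham 15 calls became 8 without 48 h replicate 1, at 72 h against sham 5 became 0 without 72 h replicate 2, at 168 h against 48 h 18 became 9 without 168 h replicate 2, and at 24 h against 4 h 12 became 7 without 4 h replicate 1, 4 h replicate 2 or 24 h replicate 2.

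**Figure D2:**
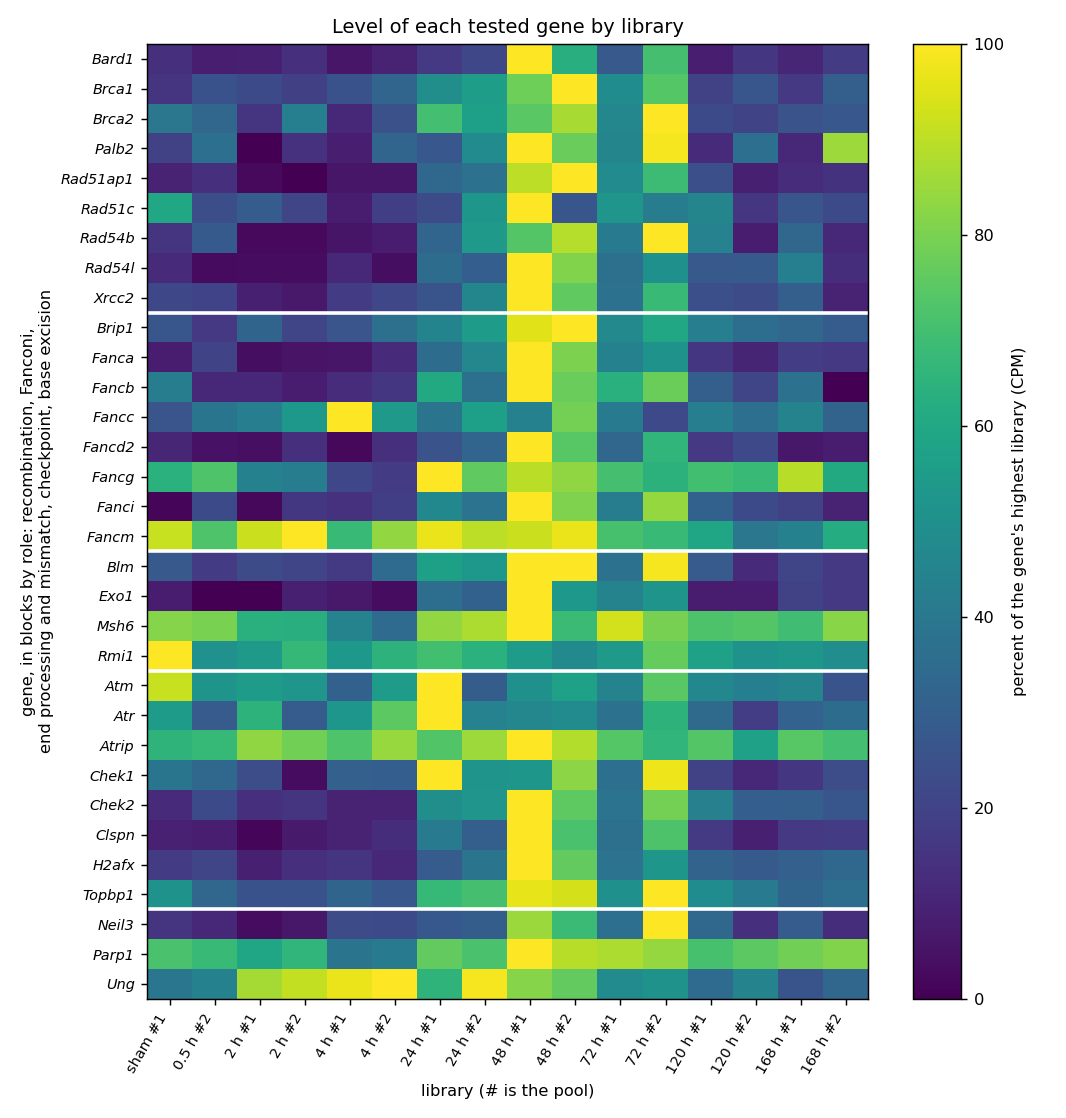
Level of each of the 32 tested genes (y axis, in 5 blocks by role) in each complete library (x axis), as a percent of the highest library of that gene. The brightest cells lie in the 48 h columns and, for several genes, in the second 72 h pool; Ung, Fancc, Fancg, Fancm, Rmi1, Atm, Atr and Chek1 have their brightest cell elsewhere.

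Promoters of these genes were read for the words that E2F factors are known to bind, since E2F proteins drive many genes of the replication phase in dividing cells. RefSeq promoter sequences (GRCm38.p6, 250 bases before to 50 bases after the start) matched 28 of the 33 genes; Rad54b, Xrcc2, Fancd2, Exo1 and H2afx had no entry. One of the words TTTCGCGC, TTTGGCGC or TTTCCCGC, on either strand, stood in the promoters of 9 of the 28 genes (32.1%), beside 4.04% of 9756 tested genes with a promoter, 45.8% of 24 DNA replication genes and 12.5% of 24 mitosis genes. Of the genes that differed among the groups 7 of 19 held a word (36.8%), and of the others 2 of 9 (22.2%). Those 2, Rad51c and Rmi1, each have 2 promoter sequences. Among genes with 1 promoter sequence, a word stood in 38.9% of 18 genes that differed and in 0% of 7 others. The difference between these shares was not tested. The word TTTGAA, the CHR element known from mitotic promoters, stood in 1 of 28 (3.57%, Bard1), beside 14.6% of tested genes and 70.8% of mitosis genes, and CCAAT in 16 of 28 (57.1%), beside 43.3% and 87.5%. Each motif was counted on both strands and apart from the others, also where matches overlap.

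Windows around the E2F word of 6 genes whose levels are described below are shown so that the word can be seen in its place, written 5′ to 3′ on the strand of the gene, with the word in capitals. Distances are counted from the start that the promoter sequence uses, which is not the outer start of the gene's annotated position. By annotated position, the windows of Brca2, Fancg, Chek2, Topbp1 and Clspn lie inside the gene, and that of Bard1 lies outside it. The word begins 209 bases before the start in Bard1 (chr1:71103154-71103201, minus strand), 168 in Brca2 (chr5:150522433-150522480, plus strand), 52 in Fancg (chr4:43010326-43010373, minus strand), 152 in Chek2 (chr5:110839811-110839858, plus strand) and 129 in Topbp1 (chr9:103305178-103305225, plus strand), and begins 21 bases past it in Clspn (chr4:126556990-126557019, plus strand), all in GRCm38.
Bard1: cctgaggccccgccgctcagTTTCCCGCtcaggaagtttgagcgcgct
Brca2: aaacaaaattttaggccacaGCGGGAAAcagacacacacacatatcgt
Fancg: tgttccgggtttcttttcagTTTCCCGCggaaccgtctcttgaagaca
Chek2: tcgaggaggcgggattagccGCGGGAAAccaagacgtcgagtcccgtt
Topbp1: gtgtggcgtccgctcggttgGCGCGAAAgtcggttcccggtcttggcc
Clspn: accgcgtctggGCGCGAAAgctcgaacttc
Bard1 and Fancg carry the word TTTCCCGC as written, Brca2 and Chek2 carry its reverse complement, and Topbp1 and Clspn carry the reverse complement of TTTCGCGC. Msh6, Rad51c and Rmi1 held the other matches. A match describes these letters and is no evidence of binding.

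**Figure D3:**
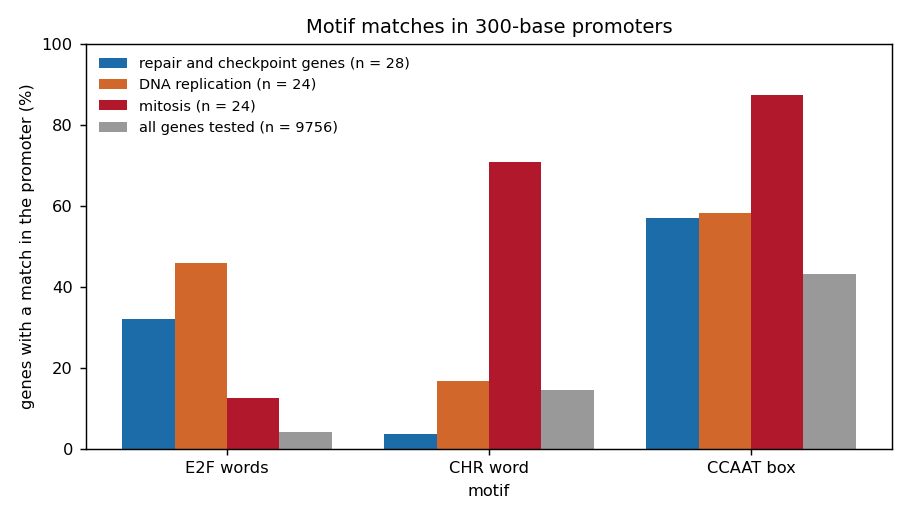
Percent of genes with at least 1 match in the 300-base promoter (y axis) for E2F words, the CHR word and the CCAAT box (x axis), in repair and checkpoint genes, DNA replication genes, mitosis genes and all tested genes. Repair and checkpoint genes stand at 32.1% for E2F words and 3.57% for the CHR word, beside 4.04% and 14.6% of all tested genes.

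Homologous recombination genes peaked at 48 h as a group. Their summed level was 46.1 ± 4.34 CPM at 48 h (SD, n = 2), against 12.3 CPM in the sham pool, a 3.73-fold difference. Of 9 tested members 5 rose at 48 h against sham, 3 rose at 24 h against 4 h and 6 fell at 168 h against 48 h. Of all genes tested 7.66%, 11.7% and 6.84% were called in the same directions. All 9 members had a log2 fold change above 0 at 48 h, with a median of 2.40.

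Brca1 (chr11:101488761-101551955, minus strand in GRCm38) encodes a ubiquitin ligase that steers breaks toward recombination, and Bard1 (chr1:71027535-71103141, minus strand) its obligate partner. Brca1 stood at 1.5 CPM in the sham pool, 2.56 at 0.5 h, 2.27 and 1.91 at 2 h, and 2.55 and 3.28 at 4 h. Brca1 then stood at 5.01 and 5.66 CPM at 24 h, 7.87 and 10.1 at 48 h, 4.91 and 7.44 at 72 h, 1.97 and 2.69 at 120 h, and 1.67 and 3.06 at 168 h. Every 48 h pool was above every pool of the other times, the nearest being the second 72 h pool, and the 168 h pools overlapped those at 2 and 4 h. At 48 h it had risen against sham (log2 fold change 2.58 ± 0.48, edgeR adjusted p = 0.00443, SE here and below) and at 168 h it was lower than at 48 h (log2 fold change -1.92 ± 0.34, edgeR adjusted p = 0.00278). Bard1 stood at 1.12 CPM in the sham pool, 0.698 at 0.5 h, 0.709 and 1.09 at 2 h, and 0.479 and 0.78 at 4 h. Bard1 then stood at 1.36 and 1.75 CPM at 24 h, 8.16 and 5.12 at 48 h, 2.29 and 5.75 at 72 h, 0.695 and 1.29 at 120 h, and 0.889 and 1.42 at 168 h. It was low in every pool up to 24 h, and the first 48 h pool and the second 72 h pool were its highest. The rise at 48 h was called against sham (log2 fold change 2.55 ± 0.66, edgeR adjusted p = 0.0226) and against 24 h (log2 fold change 2.09 ± 0.47, edgeR adjusted p = 0.0208), and the level at 168 h was below that at 48 h (log2 fold change -2.51 ± 0.50, edgeR adjusted p = 0.00553).

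Brca2 acts in strand exchange, and Palb2 encodes the bridge between BRCA1 and BRCA2. Brca2 stood at 2.24 CPM in the sham pool, 1.86 at 0.5 h, 0.85 and 2.45 at 2 h, and 0.638 and 1.4 at 4 h. Brca2 then stood at 3.97 and 3.19 CPM at 24 h, 4.22 and 4.92 at 48 h, 2.62 and 5.66 at 72 h, 1.27 and 1.17 at 120 h, and 1.45 and 1.53 at 168 h. The 24 h pools lay above both 4 h pools (log2 fold change 1.79 ± 0.55, edgeR adjusted p = 0.0319), while at 48 h the gene missed the threshold against sham (log2 fold change 1.02 ± 0.58, edgeR adjusted p = 0.249). The second 72 h pool was its highest library, and both 168 h pools lay below both 48 h pools (log2 fold change -1.61 ± 0.48, edgeR adjusted p = 0.0391). Palb2 ranged between 0 and 1.92 CPM and passed no test, with 35 reads in the 48 h pools, against 3 in the sham pool, a ratio of 4.54 (95% counting interval 1.43 to 23.1).

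Rad51ap1 helps strands pair during recombination, and Rad54l and Rad54b encode motor proteins of the same step. Rad51ap1 stood at 0.499 CPM in the sham pool, 0.698 at 0.5 h, 0.142 and 0 at 2 h, and 0.319 and 0.312 at 4 h. Rad51ap1 then stood at 1.77 and 1.95 CPM at 24 h, 4.7 and 5.21 at 48 h, 2.51 and 3.57 at 72 h, 1.27 and 0.468 at 120 h, and 0.667 and 0.765 at 168 h. Its 24 h pools were above every earlier pool, and its 48 h pools were above all others. It rose at 24 h against 4 h (log2 fold change 2.51 ± 0.64, edgeR adjusted p = 0.0137) and at 48 h against sham (log2 fold change 3.28 ± 0.68, edgeR adjusted p = 0.00778), and was lower at 168 h than at 48 h (log2 fold change -2.77 ± 0.47, edgeR adjusted p = 0.00237). Rad54l stood at 0.499 CPM in the sham pool, 0.116 at 0.5 h, 0.142 and 0.136 at 2 h, and 0.479 and 0.156 at 4 h. Rad54l then stood at 1.46 and 1.23 CPM at 24 h, 4.13 and 3.34 at 48 h, 1.53 and 2.08 at 72 h, 1.16 and 1.17 at 120 h, and 1.78 and 0.547 at 168 h. The 48 h pools were again above all others, with calls against sham (log2 fold change 2.87 ± 0.73, edgeR adjusted p = 0.021) and for the lower level at 168 h (log2 fold change -1.68 ± 0.48, edgeR adjusted p = 0.0339). It shares 15.4% of its exon bases with Lrrc41 on the other strand. Rad54b stood at 0.873 CPM in the sham pool, 1.63 at 0.5 h, 0.142 and 0.136 at 2 h, and 0.319 and 0.468 at 4 h. Rad54b then stood at 1.88 and 3.09 CPM at 24 h, 4.22 and 5.12 at 48 h, 2.4 and 5.75 at 72 h, 2.55 and 0.468 at 120 h, and 1.89 and 0.656 at 168 h. Its 72 h and later pools differed widely from one another, and only the rise at 24 h against 4 h was called (log2 fold change 2.61 ± 0.87, edgeR adjusted p = 0.0458). Its exons share 35.8% of their bases with Fsbp on the same strand, so its reads may belong in part to that gene.

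Xrcc2 and Rad51c encode further proteins of recombination. Xrcc2 stood at 1.75 CPM in the sham pool, 1.63 at 0.5 h, 0.709 and 0.545 at 2 h, and 1.44 and 1.72 at 4 h. Xrcc2 then stood at 2.09 and 3.7 CPM at 24 h, 8.06 and 6.1 at 48 h, 3.05 and 5.46 at 72 h, 1.97 and 1.87 at 120 h, and 2.45 and 0.765 at 168 h. Both 48 h pools exceeded all others, and the gene was higher at 48 h than in sham (log2 fold change 2.01 ± 0.61, edgeR adjusted p = 0.0412) and lower at 168 h than at 48 h (log2 fold change -2.13 ± 0.46, edgeR adjusted p = 0.00911). Rad51c did not pass the test among groups (edgeR adjusted p = 0.208). It ranged between 0.479 and 5.85 CPM, and its 48 h pools, at 5.85 and 1.57 CPM, spanned much of that range.

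Calls in this group rested on few reads and some on 1 pool. Without 48 h replicate 1 the rise at 48 h against sham was not called for Bard1 (log2 fold change 2.15, edgeR adjusted p = 0.0948), and without either 48 h replicate it was not called for Rad54l (edgeR adjusted p = 0.0543 to 0.0724). The call of Xrcc2 against sham was lost in 6 of 15 refits (log2 fold change 1.77 to 2.17, edgeR adjusted p = 0.051 to 0.136). The rise at 24 h against 4 h was lost in 4 of 16 refits for Brca2, 3 for Rad51ap1 and 8 for Rad54b, at an edgeR adjusted p of at most 0.195. That of Bard1 at 48 h against 24 h was lost without 24 h replicate 1 or 48 h replicate 1 (edgeR adjusted p = 0.152 to 0.158). The fall at 168 h was lost in 5 of 16 refits for Brca2, 3 for Rad54l, 2 for Xrcc2 and 1 for Bard1, and in none for Brca1 and Rad51ap1. DESeq2 did not call the lower level of Rad54l at 168 h (DESeq2 adjusted p = 0.108).

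Fanconi anaemia genes, as a sum, reached 46 ± 1.66 CPM at 48 h (SD, n = 2), against 15.1 CPM in the sham pool, a 3.05-fold difference. Of 8 tested members 4 rose at 48 h against sham (Fanca, Fanci, Fancd2 and Brip1), and the same 4 were lower at 168 h than at 48 h. Of all genes tested 7.66% were called higher and 6.84% lower in these comparisons, in that order. Fancb, Fancg, Fancc and Fancm were not called at 48 h.

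Fanca (chr8:123266294-123318651, minus strand in GRCm38) encodes a subunit of the core complex that senses crosslinks. It stood at 0.624 CPM in the sham pool, 1.63 at 0.5 h, 0.283 and 0.409 at 2 h, and 0.479 and 0.936 at 4 h. Fanca then stood at 2.82 and 3.7 CPM at 24 h, 7.96 and 6.39 at 48 h, 3.49 and 4.07 at 72 h, 1.27 and 0.819 at 120 h, and 1.45 and 1.31 at 168 h. The 48 h pools were above all others, with the 24 and 72 h pools next and apart from the rest. It was higher at 24 h than at 4 h (log2 fold change 2.18 ± 0.44, edgeR adjusted p = 0.00337), higher at 48 h than at 24 h (log2 fold change 1.14 ± 0.32, edgeR adjusted p = 0.0487) and higher at 24, 48 and 72 h than in sham, with log2 fold changes of 2.36, 3.50 and 2.57 (edgeR adjusted p = 0.0393, 0.00171 and 0.0211). Its level at 168 h was below that at 48 h (log2 fold change -2.37 ± 0.35, edgeR adjusted p = 0.00099).

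Fancd2 and Fanci encode the 2 proteins that the core complex marks with ubiquitin at a stalled fork. Fancd2 stood at 0.748 CPM in the sham pool, 0.349 at 0.5 h, 0.283 and 0.954 at 2 h, and 0.16 and 0.936 at 4 h. Fancd2 then stood at 1.77 and 2.26 CPM at 24 h, 6.91 and 5.12 at 48 h, 2.29 and 4.56 at 72 h, 1.16 and 1.52 at 120 h, and 0.445 and 0.547 at 168 h. It was low through 4 h and again at 168 h, with the 48 h pools above all others. It rose at 48 h against sham (log2 fold change 2.98 ± 0.74, edgeR adjusted p = 0.018) and its fall at 168 h against 48 h was a log2 fold change of -3.56 (edgeR adjusted p = 0.00181). Fanci stood at 0.125 CPM in the sham pool, 1.51 at 0.5 h, 0.142 and 1.09 at 2 h, and 0.957 and 1.25 at 4 h. Fanci then stood at 3.13 and 2.57 CPM at 24 h, 6.72 and 5.41 at 48 h, 2.84 and 5.66 at 72 h, 2.09 and 1.52 at 120 h, and 1.33 and 0.656 at 168 h. The 48 h pools and the second 72 h pool were its highest. Its reads numbered 125 in the 48 h pools, against 1 in the sham pool, a ratio of 48.7 with a 95% counting interval of 8.58 to 1.94e+03. The call against sham passed at 24, 48 and 72 h (edgeR adjusted p = 0.0489, 0.00443 and 0.0193). Against 48 h, with complete pools on both sides, the level at 168 h was lower (log2 fold change -2.59 ± 0.52, edgeR adjusted p = 0.00623). Fanci shares 16% of its exon bases with Polg, Fanca 10.5% with Zfp276 and Fancd2 3.24% with Fancd2os, each on the other strand, and whether reads were counted by strand is not stated.

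Brip1 encodes the helicase also called FANCJ that binds BRCA1. It stood at 2.62 CPM in the sham pool, 1.63 at 0.5 h, 3.12 and 2.04 at 2 h, and 2.55 and 3.59 at 4 h. Brip1 then stood at 4.38 and 5.35 CPM at 24 h, 9.31 and 9.74 at 48 h, 4.58 and 5.85 at 72 h, 4.17 and 3.51 at 120 h, and 3.22 and 2.84 at 168 h. The 48 h pools were nearly equal and exceeded all others. It rose at 48 h against sham (log2 fold change 1.86 ± 0.38, edgeR adjusted p = 0.00712) and against 24 h (log2 fold change 0.97 ± 0.27, edgeR adjusted p = 0.0481), and was lower at 168 h than at 48 h (log2 fold change -1.65 ± 0.28, edgeR adjusted p = 0.0024).

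Fancg and Fancb encode further subunits of the core complex. Fancg stood at 2.87 CPM in the sham pool, 3.26 at 0.5 h, 1.98 and 1.91 at 2 h, and 0.957 and 0.78 at 4 h. Fancg then stood at 4.49 and 3.39 CPM at 24 h, 4.03 and 3.74 at 48 h, 3.16 and 2.88 at 72 h, 3.13 and 3.04 at 120 h, and 4 and 2.73 at 168 h. Its lowest pools were those at 4 h, and its 24, 48 and 168 h pools overlapped. It fell at 4 h against sham (log2 fold change -1.71 ± 0.46, edgeR adjusted p = 0.0238) and was higher at 24 h than at 4 h (log2 fold change 2.16 ± 0.38, edgeR adjusted p = 0.00142). Fancb differed among the groups (edgeR adjusted p = 0.0324) and stood at 2.12 CPM in the sham pool, 0.582 at 0.5 h, 0.567 and 0.409 at 2 h, and 0.638 and 0.78 at 4 h. Fancb then stood at 3.03 and 1.85 CPM at 24 h, 4.99 and 3.84 at 48 h, 3.16 and 3.87 at 72 h, 1.51 and 1.05 at 120 h, and 1.89 and 0 at 168 h. Its 48 and 72 h pools were above all others, but no comparison of 2 groups called it. Fancc, another core subunit, was highest at 4 h, where its pools held 8.94 and 4.83 CPM, against 2.37 CPM in the sham pool (edgeR adjusted p = 0.082). Fancm, the translocase that anchors the core complex on DNA, stayed between 1.4 and 3.54 CPM (edgeR adjusted p among groups = 0.144).

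Leaving out 1 pool ended some of these calls. The rise of Fancd2 at 48 h against sham was not called without 48 h replicate 1 (log2 fold change 2.72, edgeR adjusted p = 0.0671). The calls at 72 h against sham were lost without 72 h replicate 2 for Fanca and Fanci (edgeR adjusted p = 0.11 and 0.111), and those at 24 h against sham in 5 and 10 of 15 refits. The call of Fancg at 4 h was lost without either 4 h replicate (edgeR adjusted p = 0.0698 to 0.099). The calls of Brip1 and Fanca at 48 h against 24 h were lost in 11 and 12 of 16 refits. The fall of Fanci at 168 h was lost without 168 h replicate 2 (edgeR adjusted p = 0.0846), and those of Fanca, Fancd2 and Brip1 in no refit. DESeq2 did not call Brip1 and Fanca at 48 h against 24 h (DESeq2 adjusted p = 0.0966 and 0.147), Fanca and Fanci at 24 h against sham (DESeq2 adjusted p = 0.0943 and 0.0788), Fanca at 72 h (DESeq2 adjusted p = 0.0542) or Fancg at 4 h (DESeq2 adjusted p = 0.093). With library totals alone, Brip1 and Fanca at 48 h against 24 h and Fanci at 24 h against sham were not called either (edgeR adjusted p = 0.0584, 0.0522 and 0.0529).

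The 4 genes of end processing and mismatch repair did not move together, and their sum was 37.6 ± 7.03 CPM at 48 h (SD, n = 2), against 35.5 CPM in the sham pool. Exo1 encodes the exonuclease that widens breaks and mismatch gaps. It stood at 0.374 CPM in the sham pool, 0 at 0.5 h, 0 and 0.409 at 2 h, and 0.319 and 0.156 at 4 h. Exo1 then stood at 1.67 and 1.44 CPM at 24 h, 4.61 and 2.46 at 48 h, 2.07 and 2.38 at 72 h, 0.348 and 0.351 at 120 h, and 0.889 and 0.765 at 168 h. The 24, 48 and 72 h pools were above all others. Its 73 reads at 48 h against 3 sham reads gave a ratio of 9.48 (95% counting interval 3.12 to 47, edgeR adjusted p = 0.0206), it was higher at 24 h than at 4 h (log2 fold change 2.64 ± 0.78, edgeR adjusted p = 0.0265) and it was lower at 168 h than at 48 h (log2 fold change -2.08 ± 0.53, edgeR adjusted p = 0.0201). Blm, the Bloom syndrome helicase, stood at 2.37 CPM in the sham pool, 1.51 at 0.5 h, 1.98 and 1.77 at 2 h, and 1.44 and 2.96 at 4 h. Blm then stood at 4.8 and 4.52 CPM at 24 h, 8.44 and 8.46 at 48 h, 3.16 and 8.33 at 72 h, 2.43 and 1.05 at 120 h, and 1.78 and 1.42 at 168 h. The 48 h pools and the second 72 h pool were alike, and the first 72 h pool was lower than either 24 h pool. It narrowly missed the threshold at 48 h against sham (log2 fold change 1.83 ± 0.59, edgeR adjusted p = 0.0528) and was lower at 168 h than at 48 h (log2 fold change -2.39 ± 0.47, edgeR adjusted p = 0.00553).

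Msh6 (chr17:87975050-87990892, plus strand in GRCm38), a sensor of DNA mismatches, differed at an early time instead. It stood at 17.2 and 14.9 CPM in the 2 sham pools, 16.8 at 0.5 h, 13.3 and 13.2 at 2 h, and 9.41 and 7.33 at 4 h. Msh6 then stood at 17.6 and 18.4 CPM at 24 h, 21 and 14.3 at 48 h, 19.6 and 16.7 at 72 h, 15.1 and 15.4 at 120 h, and 14.6 and 17.3 at 168 h. Both 4 h pools lay below every other pool, the 2 h pools were next lowest, and the pools of the other times overlapped. It fell at 4 h against sham (log2 fold change -1.04 ± 0.26, edgeR adjusted p = 0.0165) and was higher at 24 h than at 4 h (log2 fold change 1.11 ± 0.22, edgeR adjusted p = 0.0031), with a log2 fold change of 0.04 at 48 h against sham. Rmi1, which works with BLM to undo crossed DNA strands, was the only one of the 32 genes called lower at 48 h than in sham, at 8.54 and 7.48 CPM in the 48 h pools, against 15.6 and 12.8 CPM in the 2 sham pools (log2 fold change -0.96 ± 0.26, edgeR adjusted p = 0.0273). It ranged between 7.48 and 11.9 CPM over all pools after hepatectomy with a complete table, and did not pass the test among the 9 groups (edgeR adjusted p = 0.106). It shares 5.02% of its exon bases with Hnrnpk on the other strand.

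In this group the rise of Exo1 at 48 h against sham was not called without 48 h replicate 1 (edgeR adjusted p = 0.089), and its calls for 24 h against 4 h and 168 h against 48 h were lost in 4 and 3 of 16 refits. The fall of Blm at 168 h was lost without 168 h replicate 2 (edgeR adjusted p = 0.072), that of Msh6 at 4 h without 4 h replicate 2 (edgeR adjusted p = 0.0922), and that of Rmi1 at 48 h without either 48 h replicate (edgeR adjusted p = 0.0661 to 0.121). Rmi1 was also not called lower by DESeq2 (log2 fold change -0.94, DESeq2 adjusted p = 0.0646) or with library totals alone (log2 fold change -0.80, edgeR adjusted p = 0.0811), and DESeq2 did not call Exo1 at 24 h against 4 h (DESeq2 adjusted p = 0.0651).

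Of the 8 checkpoint genes Chek2, Clspn, H2afx and Topbp1 were called in at least 1 comparison of 2 groups, and Atm, Atr, Atrip and Chek1 in none of them. As a sum the 8 genes stood at 134 ± 15.3 CPM at 48 h (SD, n = 2), against 60.7 CPM in the sham pool, a 2.21-fold difference. At 48 h against sham 3 genes rose (Chek2, Clspn and H2afx), at 24 h against 4 h 4 rose (these and Topbp1), and the same 4 were lower at 168 h than at 48 h. Of all genes tested 7.66%, 11.7% and 6.84% were called in the same directions.

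Atm and Atr encode the apical kinases of the response, and ATRIP is the partner that brings ATR to single-stranded DNA. Atm stood at 13.2 and 8.77 CPM in the 2 sham pools, 7.45 at 0.5 h, 7.94 and 7.49 at 2 h, and 4.47 and 7.95 at 4 h. Atm then stood at 14.4 and 4.22 CPM at 24 h, 7.2 and 8.26 at 48 h, 6.43 and 10.7 at 72 h, 6.72 and 6.2 at 120 h, and 6.56 and 3.72 at 168 h. Its sham pools lay among its higher values, and its 24 h pools were its second lowest and its highest. Atr stood at 12 and 11.8 CPM in the 2 sham pools, 6.29 at 0.5 h, 14.2 and 6.4 at 2 h, and 11.5 and 16.4 at 4 h. Atr then stood at 21.9 and 9.67 CPM at 24 h, 10.1 and 10.6 at 48 h, 8.29 and 14.2 at 72 h, 7.53 and 3.98 at 120 h, and 6.89 and 7.76 at 168 h. Its pools within each of 2, 24, 72 and 120 h differed by more than 1.5-fold, so that the groups overlapped. Neither passed the test among groups (edgeR adjusted p = 0.502 for Atm and 0.151 for Atr), nor did Atrip (edgeR adjusted p = 0.455), which ranged between 5.15 and 9.02 CPM. Their log2 fold changes at 48 h against sham were -0.77 ± 0.54, -0.21 ± 0.52 and 0.53 ± 0.28 (SE), and a missed threshold does not show equal levels. Atrip shares 16% of its exon bases with Trex1 on the same strand.

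Atm and Atr have long transcripts, and the 24 h pools also differed by transcript length over all genes. Over tested genes with a mean of at least 10 CPM, the median log2 ratio of 24 h replicate 2 over replicate 1 was -0.23 for 529 genes longer than 7000 bases and 0.13 for 1209 genes shorter than 1500 bases. At the other times these medians lay between -0.13 and 0.12 for the long genes and between -0.08 and 0.13 for the short ones. The -0.13 and the 0.13 were both those of the 168 h pools, so the length difference was not particular to 24 h. The part of this length difference in the values of Atm and Atr was not tested.

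Chek1 and Chek2 encode the effector kinases below ATR and ATM. Chek1 differed among the groups (edgeR adjusted p = 0.0372) and stood at 1.62 CPM in the sham pool, 1.4 at 0.5 h, 0.992 and 0.136 at 2 h, and 1.28 and 1.25 at 4 h. Chek1 then stood at 4.17 and 2.16 CPM at 24 h, 2.21 and 3.44 at 48 h, 1.53 and 4.07 at 72 h, 0.811 and 0.468 at 120 h, and 0.667 and 0.984 at 168 h. Its pools within each of 2, 24, 48, 72 and 120 h differed by more than 1.5-fold, and no comparison of 2 groups called it. Chek2 (chr5:110839800-110874140, plus strand in GRCm38) stood at 1.37 CPM in the sham pool, 2.56 at 0.5 h, 1.56 and 1.77 at 2 h, and 1.12 and 1.09 at 4 h. Chek2 then stood at 5.64 and 5.96 CPM at 24 h, 11.4 and 8.56 at 48 h, 4.36 and 9.03 at 72 h, 4.98 and 3.39 at 120 h, and 3.45 and 3.06 at 168 h. Both 24 h pools were well above all earlier ones, the 48 h pools and the second 72 h pool were its highest, and the 120 and 168 h pools stayed above the 2 and 4 h pools. It rose at 24 h against 4 h (log2 fold change 2.38 ± 0.43, edgeR adjusted p = 0.00172) and at 48 h against sham (log2 fold change 2.85 ± 0.51, edgeR adjusted p = 0.00377), and was lower at 168 h than at 48 h (log2 fold change -1.61 ± 0.34, edgeR adjusted p = 0.00757).

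Clspn, the adaptor claspin through which ATR reaches CHK1, and Topbp1, the ATR activator, are fork proteins. Clspn stood at 0.873 CPM in the sham pool, 0.815 at 0.5 h, 0.142 and 0.681 at 2 h, and 0.957 and 1.25 at 4 h. Clspn then stood at 3.97 and 2.88 CPM at 24 h, 9.5 and 6.79 at 48 h, 3.49 and 6.85 at 72 h, 1.62 and 0.819 at 120 h, and 1.56 and 1.64 at 168 h. The 24, 48 and 72 h pools were above all others. It rose at 24 h against 4 h (log2 fold change 1.62 ± 0.53, edgeR adjusted p = 0.0419) and at 48 h against sham (log2 fold change 3.20 ± 0.65, edgeR adjusted p = 0.00732), and was lower at 168 h than at 48 h (log2 fold change -2.34 ± 0.44, edgeR adjusted p = 0.00455). Topbp1 stood at 13.2 and 9.9 CPM in the 2 sham pools, 8.5 at 0.5 h, 6.52 and 6.54 at 2 h, and 8.3 and 7.02 at 4 h. Topbp1 then stood at 17.4 and 18.3 CPM at 24 h, 24.9 and 24.2 at 48 h, 13 and 25.9 at 72 h, 12.6 and 10.6 at 120 h, and 8.34 and 9.4 at 168 h. The second 72 h pool lay with those at 48 h, and the first was close to the sham pools. It was higher at 24 h than at 4 h (log2 fold change 1.22 ± 0.28, edgeR adjusted p = 0.007), did not pass against the single sham library at 48 h (log2 fold change 0.89 ± 0.32, edgeR adjusted p = 0.0784), and was lower at 168 h than at 48 h (log2 fold change -1.47 ± 0.26, edgeR adjusted p = 0.00306). With sham replicate 2 added, its log2 fold change at 48 h against sham was 1.09 (edgeR adjusted p = 0.00949).

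H2afx (chr9:44334715-44336077, plus strand in GRCm38) encodes the histone variant H2AX, whose phosphorylated form marks breaks. It stood at 12.6 and 11.5 CPM in the 2 sham pools, 14.8 at 0.5 h, 6.09 and 9.67 at 2 h, and 10.7 and 8.27 at 4 h. H2afx then stood at 20.6 and 27.1 CPM at 24 h, 70.7 and 53.6 at 48 h, 26.8 and 37.5 at 72 h, 22.5 and 20 at 120 h, and 21.6 and 23.6 at 168 h. Both 48 h pools were far above every other library, the 72 h pools overlapped those at 24 h, and so did the 120 and 168 h pools. It rose at 24 h against 4 h (log2 fold change 1.33 ± 0.26, edgeR adjusted p = 0.00266), at 48 h against 24 h (log2 fold change 1.38 ± 0.23, edgeR adjusted p = 0.00406) and at 48 h against sham (log2 fold change 2.30 ± 0.32, edgeR adjusted p = 0.00103), and was lower at 168 h than at 48 h (log2 fold change -1.46 ± 0.23, edgeR adjusted p = 0.00152). Per length it was also the gene of highest level in the set, at 50.9 RPKM (reads scaled to transcript length and library total) on average at 48 h, against 9.19 RPKM in the sham pool, followed by Parp1 with 22.2 RPKM at 48 h, against 15 RPKM in the sham pool. It shares 10.2% of its exon bases with Gm44335 on the other strand, and these reads measure its messenger RNA, not its phosphorylation.

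The calls of H2afx held in every refit with 1 pool left out except at 72 h against sham, which was lost without 72 h replicate 2 (log2 fold change 1.04, edgeR adjusted p = 0.204). Without that pool the call of Chek2 at 72 h was lost as well (edgeR adjusted p = 0.169), and its call at 24 h against sham was lost in 12 of 15 refits. The rise of Clspn at 24 h against 4 h was lost in 8 of 16 refits, and that of Topbp1 without 4 h replicate 2 (edgeR adjusted p = 0.0606). At 168 h against 48 h, Clspn was lost without 168 h replicate 2 (edgeR adjusted p = 0.0521) and Chek2 without that pool or 48 h replicate 1 (edgeR adjusted p = 0.0626 to 0.081). DESeq2 did not call Clspn at 24 h against 4 h (DESeq2 adjusted p = 0.0613), and Chek2 at 24 h against sham was not called with RLE factors or library totals alone (edgeR adjusted p = 0.0509 and 0.0579).

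The 3 genes of base excision and single-strand break repair differed in their calls. At 4 h against sham Ung rose and Parp1 fell, and at 168 h against 48 h Ung and Neil3 fell. Ung (chr5:114130366-114139321, plus strand in GRCm38) encodes the glycosylase that removes uracil from DNA. It stood at 5.24 CPM in the sham pool, 5.82 at 0.5 h, 11.5 and 12.1 at 2 h, and 12.9 and 13.3 at 4 h. Ung then stood at 8.66 and 13.1 CPM at 24 h, 10.9 and 10.1 at 48 h, 6.43 and 6.85 at 72 h, 4.63 and 5.97 at 120 h, and 3.45 and 4.37 at 168 h. Its 2 and 4 h pools were all at least 11.5 CPM, well above the sham pool and the 0.5 h pool, its 24 and 48 h pools stayed above sham, and its 168 h pools were its lowest. It rose at 4 h against sham (log2 fold change 1.32 ± 0.31, edgeR adjusted p = 0.0122), the only gene of the set called higher there, and the fall at 168 h against 48 h was called as well (log2 fold change -1.43 ± 0.25, edgeR adjusted p = 0.00261). Every pool at 2, 4, 24 and 48 h lay above the 6.52 CPM bound of sham replicate 2. The call at 48 h against sham (log2 fold change 1.01 ± 0.31, edgeR adjusted p = 0.044) was lost in 10 of 15 refits and by DESeq2 (DESeq2 adjusted p = 0.0784), that at 4 h in none of these.

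Parp1 (chr1:180568891-180600999, plus strand in GRCm38) encodes the poly(ADP-ribose) polymerase that detects single-strand breaks, and had the most reads of the set. It stood at 55.9 and 52.6 CPM in the 2 sham pools, 59.1 and 52.6 at 0.5 h, 45.9 and 51.4 at 2 h, and 30 and 32 at 4 h. Parp1 then stood at 59.5 and 55.9 CPM at 24 h, 78.2 and 69.7 at 48 h, 68.7 and 65.8 at 72 h, 55.5 and 58.4 at 120 h, and 61.4 and 63.5 at 168 h. The 4 h pools lay below all others, and the 48 h pools above all others. It fell at 4 h against sham (log2 fold change -0.85 ± 0.15, edgeR adjusted p = 0.00249) and was higher at 24 h than at 4 h (log2 fold change 0.90 ± 0.13, edgeR adjusted p = 0.000357), calls that held in every refit with 1 pool left out. Its log2 fold change at 48 h against sham was 0.41 (edgeR adjusted p = 0.0925), and 0.45 with sham replicate 2 added (edgeR adjusted p = 0.0078).

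Neil3, a glycosylase for oxidised bases that also opens crosslinks, stood at 0.624 CPM in the sham pool, 0.466 at 0.5 h, 0.142 and 0.273 at 2 h, and 0.957 and 0.936 at 4 h. Neil3 then stood at 1.15 and 1.23 CPM at 24 h, 3.55 and 2.85 at 48 h, 1.53 and 4.17 at 72 h, 1.39 and 0.585 at 120 h, and 1.22 and 0.547 at 168 h. The 48 h pools and the second 72 h pool were its highest. Its only called difference was the lower level at 168 h than at 48 h (log2 fold change -1.84 ± 0.56, edgeR adjusted p = 0.0441), which was lost in 8 of 16 refits and by DESeq2 (DESeq2 adjusted p = 0.0878).

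**Figure D4:**
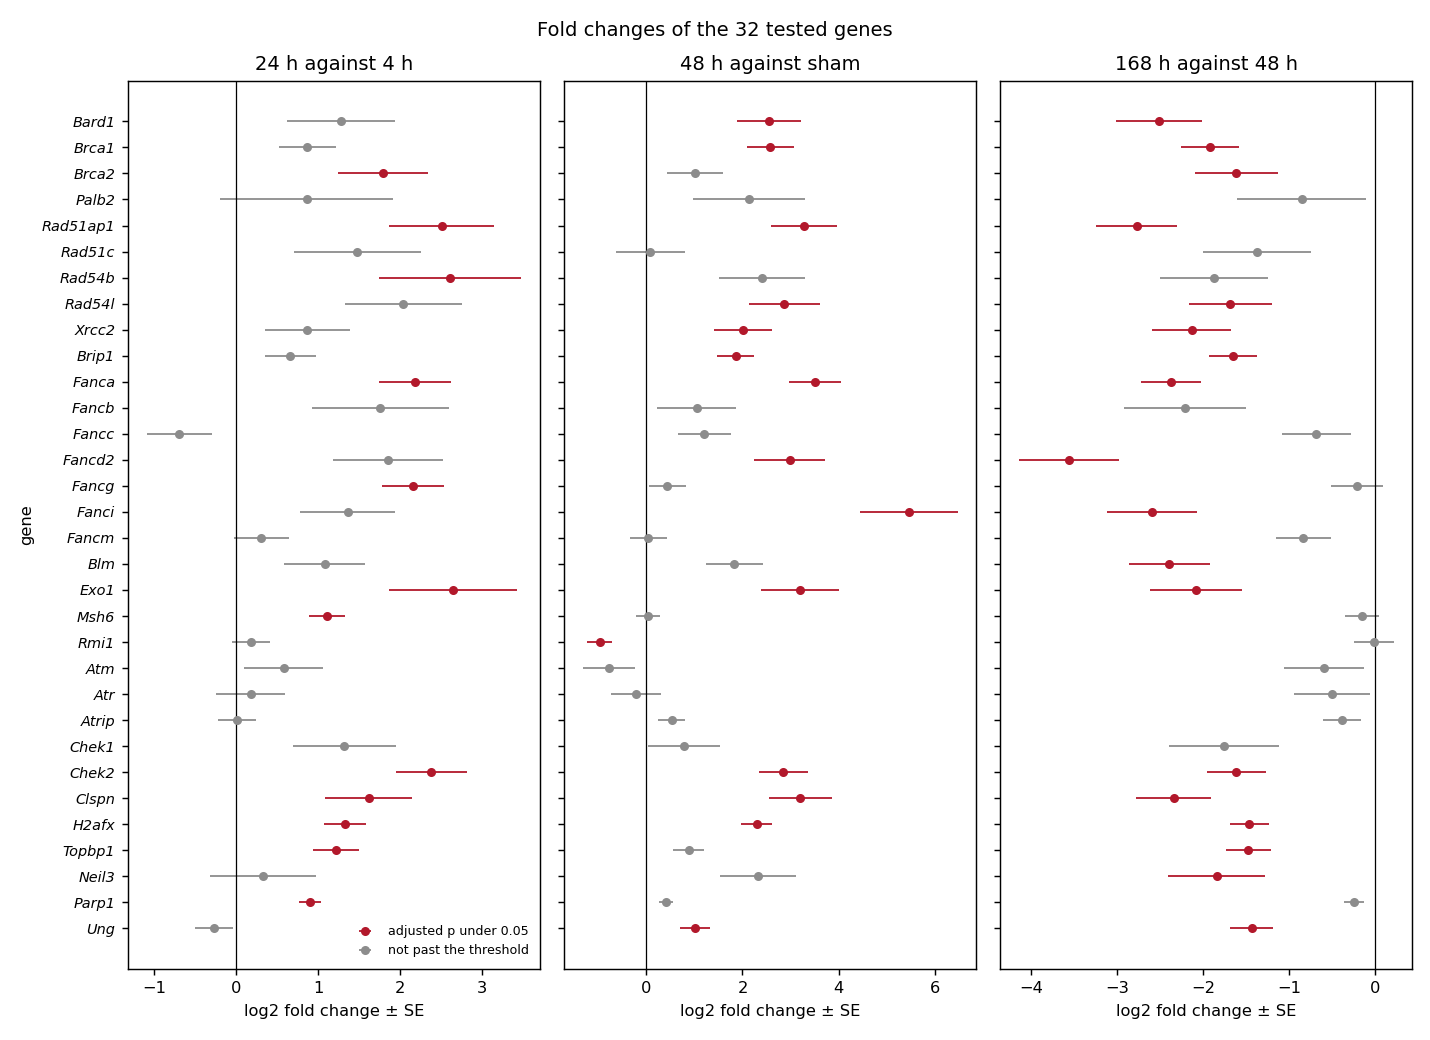
Log2 fold change with its SE (x axis) of the 32 tested genes (y axis, by role) at 24 h against 4 h, 48 h against sham and 168 h against 48 h; red points passed an edgeR adjusted p of 0.05. Red points lie right of 0 for 12 genes in the first panel and for 14 in the second, with Rmi1 left of 0, and left of 0 for 18 in the third; the point of Fanci against sham rests on 1 sham read.

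The summed levels of the role groups were set beside those of genes that copy DNA and divide cells, as a percent of each sum at 48 h. Homologous recombination genes stood at 47.8% at 24 h, against 26.8% in the sham pool. Fanconi genes stood at 59.3% at 24 h, against 32.8% in sham, and checkpoint genes at 64.3% at 24 h, against 45.2% in sham. Base excision genes stood at 79.5% at 24 h, against 70.4% in the sham pool. Genes of end processing and mismatch repair stood at 92.1% at 24 h, against 94.4% in the sham pool. A list of 30 DNA replication genes stood at 77.2% at 24 h, against 30.8% in the sham pool, and 30 mitosis genes at 14.7% at 24 h, against 4.68% in sham. Mcm5, a subunit of the replicative helicase, stood at 61.5 and 51.1 CPM at 48 h, against 47 and 44.4 CPM at 24 h, and Lig1, the replicative ligase, at 45.5 and 35.7 CPM at 48 h, against 34.1 and 36.2 CPM at 24 h. Top2a, the topoisomerase of late replication and mitosis, stood at 83.6 and 98.7 CPM at 48 h, against 30.4 and 27.7 CPM at 24 h. Cdk1, the mitotic kinase, stood at 71.4 and 76.7 CPM at 48 h, against 11.4 and 14.8 CPM at 24 h. At 48 h against 24 h edgeR called Top2a (adjusted p = 0.0101) and Cdk1 (adjusted p = 0.000856) higher, and gave adjusted p = 0.543 for Mcm5 and 0.633 for Lig1. These percentages describe group means and were not tested against one another.

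**Figure D5:**
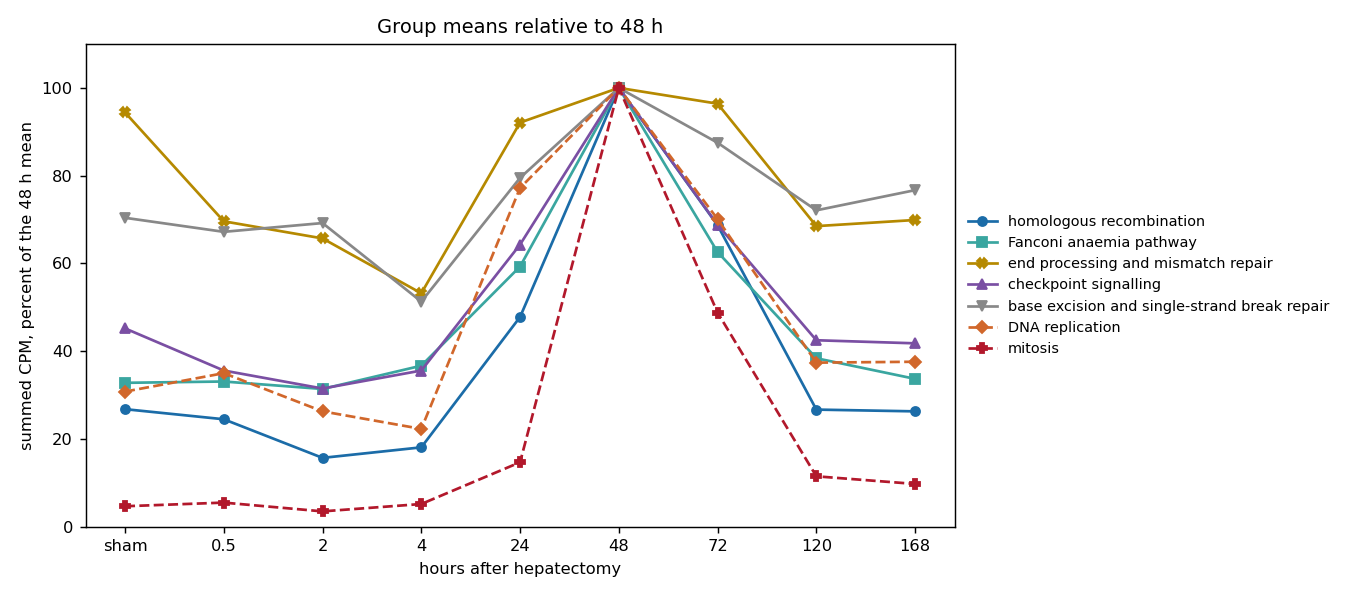
Summed CPM of the 5 role groups, of DNA replication genes and of mitosis genes (y axis, percent of the mean at 48 h) by hours after hepatectomy (x axis); points are group means of 2 pools, or of 1 pool for sham and 0.5 h. At 24 h homologous recombination genes stood at 47.8%, mitosis genes at 14.7% and replication genes at 77.2%, while end processing and mismatch repair genes stood at 92.1% at 24 h, against 94.4% in the sham pool.

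Other repair genes, from a list of 89 of which 87 were tested, were counted in the same fit. In the comparison of 48 h with sham 14 rose and 1 fell, which is 17.2% of the list beside 14.9% of all genes tested, with a median log2 fold change of 0.32, while 22 of 29 tested replication genes rose with a median of 1.97 and all 30 mitosis genes rose with a median of 4.51. Of the 6 genes of that list with the smallest p among groups, Rpa2, Wee1, Rpa1, Mdc1 and Timeless each rose at 48 h against sham. Rpa1 and Rpa2, subunits of the protein that coats single-stranded DNA, had log2 fold changes of 1.30 and 2.52 (edgeR adjusted p = 0.0036 and 0.00115). Wee1, the kinase that holds back CDK1, had 2.20 (edgeR adjusted p = 0.00584), Mdc1, which reads phosphorylated H2AX, 1.41 (edgeR adjusted p = 0.00429), and Timeless, a fork protection protein, 1.24 (edgeR adjusted p = 0.0161, and 0.0783 without 48 h replicate 1).

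The 2 pools at 72 h were unlike in these genes. The ratio of replicate 2 over replicate 1 had a median of 1.42 over the repair and checkpoint genes, and 16 of them were more than 1.5-fold higher in replicate 2, while the median over all tested genes was 1. By sums the ratio was 1.73 for homologous recombination, 1.62 for checkpoint signalling, 1.21 for the Fanconi pathway and 1 for base excision, beside 1.48 for DNA replication and 1.87 for mitosis. At the other times with 2 complete pools the median ratio over these genes lay between 0.85 and 1.22. The second 72 h pool also held 98.9 CPM of 5 cholangiocyte markers, against 38.6 CPM in the first, and 327 CPM of 6 stellate cell markers, against 217 CPM in the first. Other lists were lower in the second pool, with T and NK cell markers at 3.97 CPM, against 9.38 CPM in the first, and B cell markers at 1.39 CPM in the second, against 2.94 CPM in the first. Erythroid markers stood at 125 CPM in the second, against 228 CPM in the first and hepatocyte markers at 134595 CPM in the second, against 161643 CPM in the first. Kupffer cell and macrophage markers stood at 489 CPM in the second pool, against 468 CPM in the first, endothelial markers at 274 CPM in the second, against 258 CPM in the first, and neutrophil markers at 6.94 CPM in the second, against 4.03 CPM in the first. The part of these markers in the 72 h levels was not tested.

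Markers of other cells did not all move one way at 48 h. In the sham and 48 h libraries every marker had reads, except Ms4a1 of the B cell list in all of them, and Cd3d of the T cell list and Elane of the neutrophil list in 1 of the 48 h pools each. The sum of 7 T and NK cell markers was 4.41 and 4.13 CPM at 48 h, against 9.73 CPM in the sham pool, and that of 4 B cell markers 1.25 and 1.67 CPM at 48 h, against 2.62 CPM in sham. Kupffer cell and macrophage markers (7 genes) stood at 511 and 628 CPM at 48 h, against 464 CPM in sham, and neutrophil markers (5 genes) at 9.6 and 44 CPM at 48 h, against 9.1 CPM in sham. Endothelial markers (6 genes) stood at 254 and 241 CPM at 48 h, against 269 CPM in sham, stellate cell markers at 173 and 170 CPM at 48 h, against 226 CPM in sham, cholangiocyte markers at 39.7 and 39.6 CPM at 48 h, against 39 CPM in sham, and erythroid markers (5 genes) at 168 and 154 CPM at 48 h, against 274 CPM in sham. The 8 hepatocyte markers, which checked the labelled tissue, summed to 111703 and 115358 CPM at 48 h, against 119767 CPM in the sham pool. Members of a list did not all move with its sum. At 48 h against sham the median log2 fold change of stellate cell markers was 0.15, with 3 of 6 above 0. Kupffer cell and macrophage markers had a median of -0.32, with 3 of 7 above 0. Erythroid markers had a median of 0.61, with 3 of 5 above 0.

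At 24 h against 4 h most marker sums were lower. Hepatocyte markers stood at 85251 and 72909 CPM at 24 h, against 139113 and 148646 CPM at 4 h, and 3 of the 8 were called lower. Of all 12199 genes tested 1308 were called lower there. Cholangiocyte markers stood at 32.9 and 48.9 CPM at 24 h, against 156 and 94.2 CPM at 4 h, and endothelial markers at 239 and 257 CPM at 24 h, against 371 and 351 CPM at 4 h. Stellate cell markers stood at 193 and 213 CPM at 24 h, against 259 and 258 CPM at 4 h. The members of these 2 lists were split. Of the 6 stellate cell markers 3 had a log2 fold change above 0 (median 0.14), and of the 6 endothelial markers 2 did (median -0.18). Erythroid markers stood at 146 and 168 CPM at 24 h, against 253 and 254 CPM at 4 h. T and NK cell markers stood at 1.77 and 2.78 CPM at 24 h, against 8.14 and 5.15 CPM at 4 h. The groups overlapped for Kupffer cell and macrophage markers, at 514 and 1079 CPM at 24 h, against 691 and 552 CPM at 4 h. They also overlapped for neutrophil markers, at 4.28 and 47.4 CPM at 24 h, against 105 and 40.9 CPM at 4 h. B cell markers stood at 0.835 and 1.85 CPM at 24 h, against 0.798 and 0.78 CPM at 4 h. Of the T and NK cell list, Cd3e, Cd3g, Nkg7 and Lck each had no reads in 1 pool at 4 or 24 h, as did Ms4a1 of the B cell list and Mpo of the neutrophil list.

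At 168 h against 48 h the Kupffer cell and macrophage markers stood at 1050 and 1239 CPM at 168 h, against 511 and 628 CPM at 48 h, and 6 of the 7 were called higher. Of all 12199 genes tested 846 were called higher there. The hepatocyte, endothelial, stellate cell, erythroid and T and NK cell lists had 1 gene each called higher. T and NK cell markers stood at 13.3 and 12.9 CPM at 168 h, against 4.41 and 4.13 CPM at 48 h, and B cell markers at 3.11 and 2.73 CPM at 168 h, against 1.25 and 1.67 CPM at 48 h. Erythroid markers stood at 308 and 260 CPM at 168 h, against 168 and 154 CPM at 48 h. Endothelial markers stood at 317 and 286 CPM at 168 h, against 254 and 241 CPM at 48 h, and stellate cell markers at 229 and 225 CPM at 168 h, against 173 and 170 CPM at 48 h. Hepatocyte markers stood at 162870 and 131729 CPM at 168 h, against 111703 and 115358 CPM at 48 h. The groups overlapped for neutrophil markers, at 7.89 and 16.2 CPM at 168 h, against 9.6 and 44 CPM at 48 h. Cholangiocyte markers stood at 52.4 and 34.9 CPM at 168 h, against 39.7 and 39.6 CPM at 48 h, and overlapped too. Mpo of the neutrophil list had no reads in 1 of the 168 h pools. The part of any of these markers in the levels of the repair genes was not tested.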

How the data were processed

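Each library was sequenced from poly(A)-selected, DNase-treated liver RNA pooled from 3 mice, per the labels' protocols, and the genome build was mm10 according to the notes the submitters gave. Which aligner and counter were used, and whether strand was used, is not stated. The deposited count of a gene is its number of uniquely mapped reads, per the file headers, and the deposited RPKM is that count divided by gene length and the header's library total, per the file headers; both are the authors' values. Sums of listed counts reached the header total in 16 of 18 tables, so an unlisted gene there had 0 reads, and the other 2 tables, sham replicate 2 and 0.5 h replicate 1, were left out of the tests.

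The 16 libraries were fitted together in R 4.3.3 by the quasi-likelihood F test of edgeR 4.0.16 (scaling by TMM, factors 0.776 to 1.18, biological coefficient of variation 0.166, 7 residual degrees of freedom), and contrasts were adjusted by Benjamini-Hochberg over the 12199 genes tested, at 0.05. Genes were tested with 15 or more reads in total and, in 2 or more libraries, a CPM worth at least 10 reads at the median depth. SEs are the log2 fold change divided by the square root of F. Between pools of 1 group the SD of the log2 difference over genes was 0.457 to 0.591. The test was tried on simulated counts, and the alternatives were DESeq2 1.42.0, RLE factors, library totals alone, no filter, a replicate block, leaving out each library, and fits of 17 and 18 libraries, the last 2 added after seeing the data.

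The replicate numbers came from the labels but did not pair the pools: the deviations of equal numbers from their group means correlated at -0.36 to 0.29 over 21 pairs of groups (median 0.021), over 0.1 in 7. The members and gene lists were chosen with earlier results of these data known. Values in every library are given for members that differed among the groups and for Atm, Atr and H2afx, and from the list of other repair genes 5 of the 6 with the smallest p among groups are named; the other is not reported here. Gene positions and overlaps were read from RefSeq and GENCODE M21 annotation of GRCm38, the assembly that mm10 names, and promoters from RefSeq, GRCm38.p6. Sequencing reads without molecular identifiers are not independent molecules, so counting intervals cover counting error only.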

Additional observations from a re-analysis of the deposited data

How the results depend on the processing

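Of 71 calls of single genes, 59 held under DESeq2, 70 under RLE factors, 66 under library totals alone, 71 without the filter and 62 with a replicate block, and 14 of 14 and 3 of 3 that could be fitted held in 17 and 18 libraries; none changed direction. These counts do not cover leaving out 1 library, and many of the 71 calls were lost in at least 1 such refit. Of the 32 genes, those called at 24 h against sham, 3 by edgeR with TMM, numbered 1 under DESeq2, 1 under library totals alone, 5 without the filter and 0 with the replicate block, which is no pairing of the pools. At 48 h against 24 h the 4 calls became 2 under DESeq2, 2 under library totals alone and 8 without the filter, and at 24 h against 4 h the 12 became 19 under library totals alone. Without the filter, sham comparisons that had called 0 genes called 1 (2 h), 1 (120 h) and 2 (168 h), and 72 h against 48 h called 1, as did DESeq2 there. Other counts under these 5 settings stayed within 1.5 times, among them 15, 13 and 13 at 48 h against sham under library totals alone, DESeq2 and the replicate block.

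Leaving out 1 library gave 0 to 1 calls for 2 h, 0 to 3 for 24 h, 8 to 17 for 48 h and 0 to 7 for 72 h, each against sham, with 7 to 13 at 24 h against 4 h, 1 to 4 at 48 h against 24 h and 9 to 19 at 168 h against 48 h. Among the 8 genes listed in sham replicate 2, the fit of 17 libraries called 1 at 24 h against sham (H2afx), 4 at 48 h and 1 at 168 h (Rmi1, lower) and 2 at 48 h against 24 h, beside 0, 2, 0 and 1 in 16 libraries. With library totals alone the median log2 fold change of all genes was 0.48 at 24 h against 4 h, -0.19 at 168 h against 48 h, and -0.25, -0.35, 0.13 and 0.17 at 2, 4, 24 and 48 h against sham, beside medians between -0.01 and 0.02 with TMM. The log2 ratio of the summed reads to sham for 2, 4, 24, 48 and 168 h was then -0.56, -0.79, 0.48, 1.09 and -0.11, beside -0.31, -0.43, 0.37, 0.92 and -0.06 with TMM, and -0.09 at 168 h with RLE factors. The cause of these shifts was not tested. Precision is limited by 2 pools a group, 1 complete sham library, and low counts, since 20 of the 33 genes had 10 or fewer reads in some library.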
